A study of Homo sapiens with 8 samples.

Results

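Keratins are the intermediate filament proteins of epithelial cells, and 9 keratin genes were followed here in H2452, an established human line of biphasic pleural mesothelioma, a tumour type with epithelioid and sarcomatoid cells. The 9 genes were taken by symbol (KRT5, KRT7, KRT8, KRT14, KRT17, KRT18, KRT19, KRT80 and KRT81) from the 20323 genes of the deposited RNA sequencing table, which holds 56 keratin rows in all. All 9 were found, with 1 row each. Cells of wild-type genotype, per the labels, were kept for 48 h either in DMSO, the solvent, or in 20 nM DPT (deoxypodophyllotoxin, a tubulin-binding lignan from plants). Each group had 4 libraries, described in the series design as biological replicates. All libraries came from this 1 line, and the labels name no culture day, so p-values measure the spread between these libraries only.

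Keratin filaments are built from pairs of one type I (acidic) and one type II (basic) chain. KRT8 and KRT18 form the pair of simple, one-layered epithelia, and KRT7 and KRT19 accompany them in ducts and in mesothelium, the lining from which mesothelioma arises. KRT5 and KRT14 form the pair of basal cells in layered epithelia, KRT17 is switched on in injured epithelium, KRT80 is a type II keratin of several epithelia, and KRT81 is a hair keratin. Pathologists stain for keratins to recognise the epithelial nature of a mesothelioma.

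The genes lie in 2 clusters of GRCh38, with positions from GENCODE release 29. On chromosome 12 are the type II genes KRT80 (52168996 to 52192000, minus strand), KRT7 (52232520 to 52252186, plus), KRT81 (52285913 to 52291534, minus), KRT5 (52514575 to 52520687, minus) and KRT8 (52897187 to 52949954, minus). The type I gene KRT18 (52948871 to 52952901, plus) lies beside KRT8 there. On chromosome 17, all on the minus strand, are the type I genes KRT19 (41523617 to 41528308), KRT14 (41582279 to 41586921) and KRT17 (41619441 to 41624842).

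The stretch of 60 coding bases in KRT18 that is most alike among the type I genes spans the junction of exons 2 and 3 in each. It is shown to make the family likeness visible. Bases that differ from KRT18 are in capitals, all are given 5′ to 3′ on the coding strand, and the GRCh38 positions include the intron between both exons.
KRT18 (chr12:52950364-52950762, plus strand): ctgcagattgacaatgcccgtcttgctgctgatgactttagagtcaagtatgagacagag
KRT17 (chr17:41622499-41622996, minus strand): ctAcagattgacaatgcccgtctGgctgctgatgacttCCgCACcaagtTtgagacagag
KRT14 (chr17:41584401-41585021, minus strand): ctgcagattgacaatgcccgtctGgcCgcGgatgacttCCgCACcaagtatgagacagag
KRT19 (chr17:41524987-41525237, minus strand): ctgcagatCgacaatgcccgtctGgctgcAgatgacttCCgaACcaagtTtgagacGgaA
KRT17 and KRT14 differed from KRT18 at 8 bases and KRT19 at 10. Over the whole coding sequence KRT18 and KRT19 were 58.1% identical, and among the type II genes KRT8 and KRT7 68.5% and KRT8 and KRT80 59.5%. Longer identical stretches bear on the counts, since a read that fits several genes cannot be given to 1 of them with certainty. Of the 50-base words in the main transcript of each gene, 37.1% for KRT8 and 31.8% for KRT18 also occur in transcripts of other genes, led by the pseudogenes KRT8P3 and KRT18P11. The deposited table has 0 rows for keratin pseudogenes. The shared part was 44.6% for KRT81, led by KRT86, 23.8% for KRT14, led by KRT16, and 17.4% for KRT17, against 4.0% for KRT5, 1.8% for KRT19, 1.0% for KRT7 and 0.4% for KRT80. KRT8 and KRT18 also overlap on opposite strands by 525 exonic bases, and KRT7 overlaps the antisense gene KRT7-AS by 282. The library kit named in the labels does not mark strand, so reads from such overlaps cannot be told apart.

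Library totals ran from 14964432 to 17205391 counts. One library of each group, the third of DMSO and the second of DPT, deviated from its group mean in a like way (r = 0.68 across the 12648 tested genes, which are not independent replicates). They were picked from these data for that deviation and are called the pair, and their values are also given separately. Each test was run on all 8 libraries, on all 8 with a model term for the pair (below, the pair term), and on the 6 others. Setting apart libraries picked for their deviation lowers the spread, so p-values of both latter fits tend to be too small. The labels give no reason for the pair.

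KRT8, KRT18, KRT7 and KRT19, the keratins of simple epithelium, and KRT80 were among the abundant messages of the line. Per gene length, as FPKM (fragments scaled to gene length and library size, computed by the authors), KRT8 measured 989 ± 192 (mean ± SD, n = 4) in DMSO, rank 38 of all 20323 genes, and KRT18 816 ± 136, rank 45. KRT7 measured 360 ± 104 FPKM, KRT19 155 ± 15.9 and KRT80 78.6 ± 2.42. The order KRT8, KRT18, KRT7, KRT19, KRT80 held in 8 of 8 libraries. The remaining genes were near the floor, with DMSO means of 0.749 ± 0.71 FPKM for KRT5, 0.50 ± 0.147 for KRT17, 0.132 ± 0.0855 for KRT81 and 0.0785 ± 0.0343 for KRT14. KRT5 exceeded KRT17 in 4 of 8 libraries and KRT14 exceeded KRT81 in 4 of 8, so neither of these neighbours could be ordered. The 9 genes together made up 98.46% to 99.53% of all keratin FPKM in a library.

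The messages of these 5 keratins were lower on average in DPT than in DMSO by moderate amounts. By edgeR, KRT18 fell 1.57-fold and KRT80 1.33-fold with all 8 libraries, where KRT8, KRT7 and KRT19 did not pass. These 3 passed as lower once the pair, picked from these data, was given its own term or set aside. Of the 9 genes 7 were tested, of which 2 fell and 0 rose, where 5.29% of all tested genes fell and 5.68% rose (11.0% either way). With the pair term 5 fell and 0 rose (17.0% and 16.9% of all genes, 34.0% together), as in the 6 libraries (17.1% and 17.0%, 34.1% together). At an unadjusted p under 0.05, edgeR's quasi-likelihood test gave 4 lower and 0 higher with all 8 libraries (13.0% and 13.5% of all genes), and DESeq2 gave 4 lower and 0 higher after adjustment (6.97% and 7.07%). In bulk RNA, fewer cells of a type and less RNA per cell cannot be told apart.

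KRT18, the type I chain of the simple pair, measured 1090, 1050, 1450 and 1100 CPM (the library-scaled count, with TMM normalization) in DMSO replicates 1 to 4 and 732, 912, 638 and 703 CPM in DPT replicates 1 to 4. All DPT libraries lay below all DMSO libraries, as for 3 of the 7 keratins and 8.73% of tested genes. For 0 of the 7 did DPT lie wholly above (9.50% of genes), and 18.2% of genes separated either way. The mean went from 1170 ± 186 to 746 ± 117 CPM (n = 4 per group), a log2 fold change of -0.65 (SE 0.133, edgeR adjusted p = 0.0149). The fold change was -0.65 with the pair term (adjusted p = 1.94e-08) and -0.64 in the 6 libraries (adjusted p = 9.05e-09), and DPT replicate 2 differed from DMSO replicate 3 by -0.67 log2. The call was lost without DPT replicate 3 (adjusted p = 0.0519) or DPT replicate 4 (0.0561).

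KRT8, the type II partner of KRT18 and the most abundant of the 9, measured 1610, 1570, 2260 and 1680 CPM in DMSO and 1180, 1670, 1020 and 1100 CPM in DPT. The groups overlapped through DPT replicate 2, which stood within the range of DMSO replicates 1, 2 and 4. With all 8 libraries the log2 fold change of -0.52 (SE 0.169) did not pass (edgeR adjusted p = 0.082). With the pair term KRT8 fell by 0.53 log2 (SE 0.046, adjusted p = 3.34e-07) and in the 6 libraries by 0.56 (adjusted p = 5.12e-08). The difference within the pair was -0.43 log2.

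KRT7, the type II keratin of ducts and mesothelium, showed the widest spread of the 5 relative to its mean. It measured 508, 500, 843 and 518 CPM in DMSO and 343, 717, 300 and 311 CPM in DPT. DMSO replicate 3 and DPT replicate 2 were the 2 highest libraries, and DPT replicate 2 stood above DMSO replicates 1, 2 and 4. With all 8 libraries the log2 fold change was -0.50 (SE 0.294, edgeR adjusted p = 0.318). With the pair term KRT7 fell by 0.56 log2 (SE 0.066, adjusted p = 6.74e-06) and in the 6 libraries by 0.68 (SE 0.047, adjusted p = 7.4e-09), against -0.23 between the libraries of the pair. The pair holds 1 library of each treatment, so no test of that contrast is reported.

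KRT19, the smallest of the 9 by coding length, measured 207, 199, 248 and 220 CPM in DMSO and 189, 188, 157 and 171 CPM in DPT. The groups did not overlap. Its log2 fold change of -0.31 (SE 0.089) missed the threshold with all 8 libraries (edgeR adjusted p = 0.0532) but KRT19 fell by 0.31 with the pair term (adjusted p = 0.000407) and by 0.28 in the 6 libraries (adjusted p = 0.00147). DESeq2 called it with all 8 libraries (adjusted p = 0.0154).

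KRT80 measured 312, 300, 302 and 325 CPM in DMSO and 232, 290, 204 and 202 CPM in DPT. The 4 DMSO libraries were close together and DPT replicate 2 was the DPT library nearest to them. KRT80 fell by 0.42 log2 (SE 0.112, edgeR adjusted p = 0.0428), by 0.43 with the pair term (adjusted p = 0.000274) and by 0.55 in the 6 libraries (adjusted p = 4.01e-07), while the pair differed by -0.06 log2. The call on all 8 libraries was lost when any 1 of 6 libraries was left out, namely DPT replicate 1, 3 or 4 or DMSO replicate 1, 2 or 4 (adjusted p 0.0879 to 0.125).

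**Figure D1:**
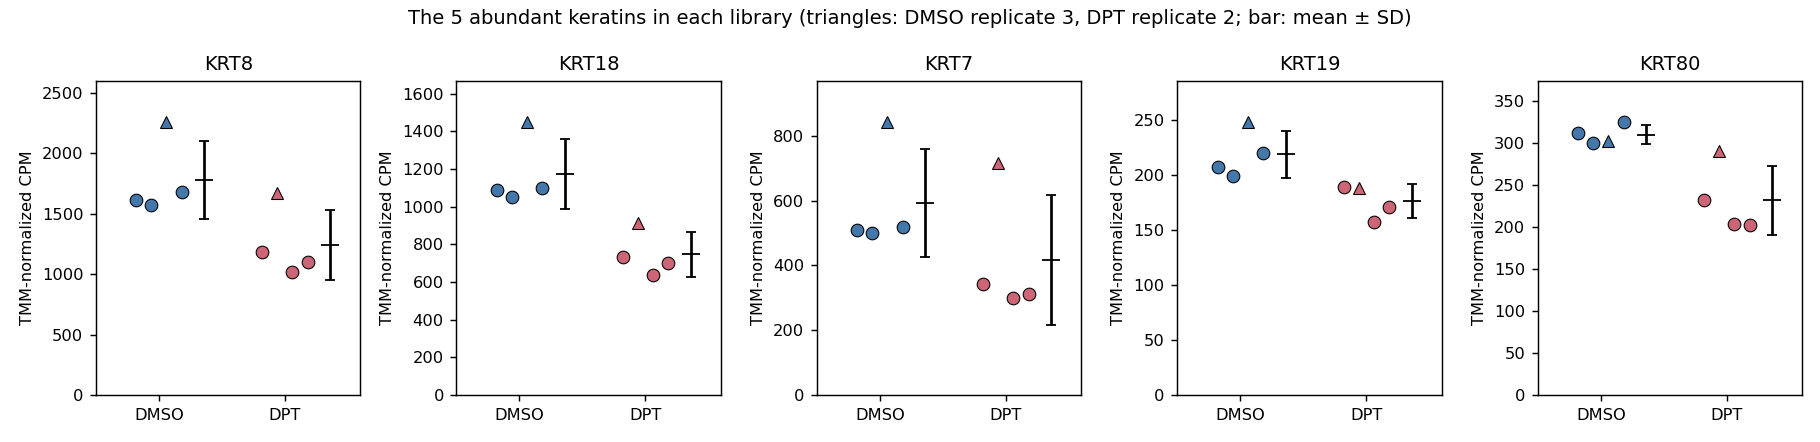
TMM-normalized CPM (vertical axes, from 0) of KRT8, KRT18, KRT7, KRT19 and KRT80 in each of the 4 DMSO and 4 DPT libraries, with the mean ± SD of each group beside the points and triangles for DMSO replicate 3 and DPT replicate 2. The DPT points of KRT18, KRT19 and KRT80 all lie below the DMSO points, while for KRT8 and KRT7 the DPT triangle (1670 and 717 CPM) reaches into the DMSO range.

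The pair differed from the other libraries of its own group in the same direction for most of these genes. DMSO replicate 3 exceeded the mean of the other DMSO libraries by 0.73 log2 for KRT7, 0.48 for KRT8, 0.43 for KRT18 and 0.25 for KRT19, and differed by -0.05 for KRT80. DPT replicate 2 exceeded the other DPT libraries by 1.17 log2 for KRT7, 0.61 for KRT8, 0.45 for KRT80, 0.40 for KRT18 and 0.13 for KRT19. In size, these differences exceeded the fold change between treatments with all 8 libraries for KRT7 in both groups. They were smaller than it for KRT18 and KRT19 in both groups. For KRT8 and KRT80 (fold changes of -0.52 and -0.42 log2) the difference was larger in DPT and smaller in DMSO.

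**Figure D2:**
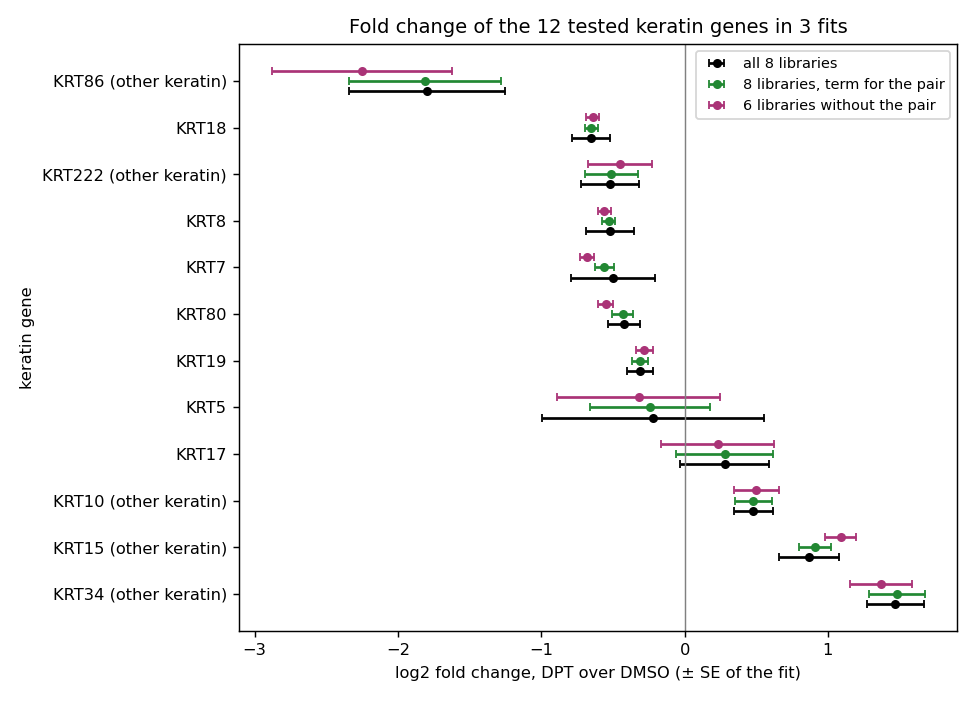
Log2 fold change of DPT over DMSO (horizontal axis, with the SE of the fit) for the 12 keratin genes that were tested, from all 8 libraries, from 8 libraries with the pair term and from the 6 others. The values of KRT18, KRT8, KRT7, KRT80 and KRT19 lie below 0 in each fit and their bars shorten in the fits that set the pair apart (KRT8 from 0.169 to 0.046).

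The summed keratin message was lower in DPT, while its make-up differed less. The 9 genes took 0.402% ± 0.0713 of all counts in DMSO and 0.286% ± 0.066 in DPT (mean ± SD, n = 4 per group). By library the sums were 3730, 3620, 5100 and 3840 CPM in DMSO and 2680, 3790, 2320 and 2490 CPM in DPT. DPT replicate 2 overlapped the DMSO libraries, and the ratio of DPT to DMSO was 0.742 within the pair and 0.669 among the other 6 libraries. No test was made of a sum over chosen genes.

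KRT8 held 41.2% ± 0.344 of the summed FPKM of the 9 genes in DMSO and 41.7% ± 0.186 in DPT, and KRT18 held 34.1% ± 0.63 and 31.9% ± 2.12. The share of KRT7 was 14.8% ± 1.36 and 14.8% ± 3.25, with its highest values in DMSO replicate 3 (16.8%) and DPT replicate 2 (19.7%). KRT19 held 6.53% ± 0.503 and 7.79% ± 1.17, and KRT80 3.35% ± 0.553 and 3.61% ± 0.225. All 5 shares overlapped between the groups.

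The ratio of the partners KRT8 and KRT18 spread less within a group than either level. KRT8 over KRT18, in FPKM, was 1.18, 1.19, 1.25 and 1.21 in DMSO and 1.28, 1.46, 1.26 and 1.25 in DPT, so that DPT replicate 2 stood highest and the groups met at 1.25. KRT19 over KRT18 was 0.191 ± 0.012 in DMSO and 0.243 ± 0.0228 in DPT, and each DPT library lay above each DMSO library. KRT7 over KRT8 was 0.338 to 0.348 in DMSO replicates 1, 2 and 4 and 0.310 to 0.324 in DPT replicates 1, 3 and 4, against 0.404 and 0.469 in the pair. The type II members summed to 1.46 ± 0.0687 times the type I members in DMSO and 1.53 ± 0.227 times in DPT.

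**Figure D3:**
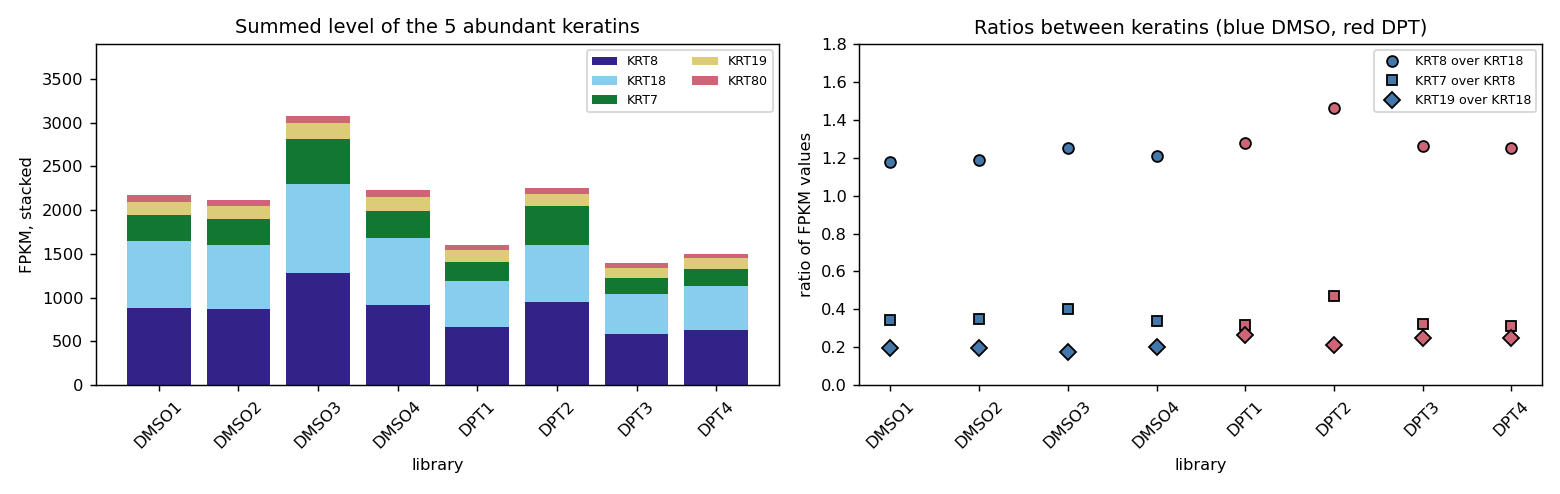
Left, FPKM of the 5 abundant keratins stacked for each library; right, the ratios KRT8 over KRT18, KRT7 over KRT8 and KRT19 over KRT18 in each library, with DMSO in blue and DPT in red. The stacks of DPT replicates 1, 3 and 4 are the lowest, and DPT replicate 2 has the highest ratio of KRT8 to KRT18 (1.46) and of KRT7 to KRT8 (0.469).

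The 4 scarce keratins gave no call. KRT5, a keratin of basal cells that is also stained in mesothelioma, had 14, 18, 52 and 2 counts in DMSO and 10, 47, 7 and 13 in DPT. Both libraries of the pair were high and the rest were not, and the treatments did not separate (log2 fold change -0.22, SE 0.774, edgeR adjusted p = 0.893). KRT17 had 9, 16, 9 and 12 counts in DMSO and 14, 12, 17 and 17 in DPT, with overlapping groups (0.28, SE 0.311, adjusted p = 0.627).

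KRT14 and KRT81 did not pass the filter on low counts. KRT14, the partner of KRT5, had 3, 2, 2 and 1 counts in DMSO and 2, 5, 9 and 12 in DPT, and without the filter its log2 fold change was 1.64 (SE 0.68, edgeR adjusted p = 0.192). KRT81 had 6, 1.32, 6.81 and 2.16 expected counts in DMSO and 2, 7.88, 6 and 8.9 in DPT (0.54 without the filter, adjusted p = 0.672). A difference in either was not detectable at this depth, where 3 counts correspond to 0.174 to 0.20 CPM.

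The counts of KRT81 are tied to those of KRT86, a hair keratin whose coding sequence is 90.1% identical. KRT86 had 10, 16.68, 13.19 and 12.84 expected counts in DMSO and 1, 7.12, 7 and 1.1 in DPT, passed the filter through the DMSO libraries alone, and was not called (log2 fold change -1.80, SE 0.544, edgeR adjusted p = 0.064). The sum of both genes was 16, 18, 20 and 15 counts in DMSO and 3, 15, 13 and 10 in DPT, with DPT replicate 2 equal to DMSO replicate 4. How the reads were divided between the 2 genes is uncertain.

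**Figure D4:**
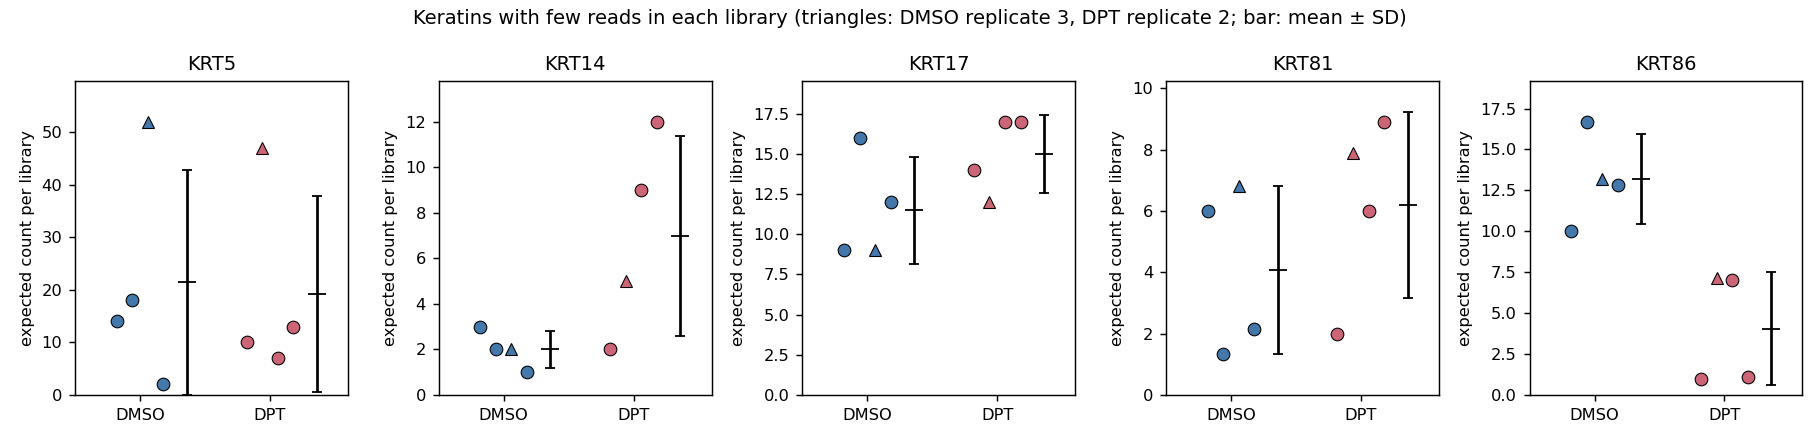
Expected counts per library (vertical axes, from 0) of the scarce keratins KRT5, KRT14, KRT17 and KRT81 and of KRT86, with the mean ± SD of each group and triangles for DMSO replicate 3 and DPT replicate 2. The 2 triangles of KRT5 (52 and 47 counts) stand above its other 6 libraries, which have 2 to 18.

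Among the other 47 keratin rows, 25 had no count in any library and 14 had 1 to 19 counts over all libraries. Another 5 were tested, of which 2 rose and 0 fell, against 5.68% and 5.29% of all tested genes. The rest, KRT16, KRT33B and KRT39, were too scarce to test. With the pair term KRT15, KRT34 and KRT10 passed as higher (16.9% of all genes) and KRT222 as lower (17.0%), as did KRT86, which carries the limits given above. KRT15, a type I keratin of basal cells, measured 8.87, 9.96, 17.1 and 8.97 CPM in DMSO and 18.4, 23.5, 21.6 and 19.1 CPM in DPT. Its groups did not overlap, although DMSO replicate 3 came close. KRT15 rose 1.83-fold (log2 0.87, SE 0.208, edgeR adjusted p = 0.0271; 1.09 and adjusted p = 6.77e-07 in the 6 libraries), a call that was lost when DPT replicate 3 or 4 or DMSO replicate 1, 2 or 4 was left out (adjusted p 0.0629 to 0.0837).

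KRT34, a type I hair keratin, measured 1.76, 2.17, 1.40 and 2.51 CPM in DMSO and 5.57, 5.03, 5.32 and 5.76 CPM in DPT. It rose 2.77-fold (log2 1.47, SE 0.199, edgeR adjusted p = 0.00281), and the call held in each fit that left out 1 library. KRT10, the type I keratin of upper epidermal layers, measured 4.81 to 6.77 CPM in DMSO and 8.13 to 9.11 CPM in DPT, and its log2 fold change of 0.48 narrowly missed the threshold (adjusted p = 0.0507). KRT222, a keratin-like gene with 2 rows in the table, measured 5.03 ± 1.16 and 3.51 ± 0.422 CPM in the row that was tested (-0.52, adjusted p = 0.134). In the 6 libraries KRT222 was not called either (-0.45, edgeR adjusted p = 0.131). KRT16, whose coding sequence is 85.2% identical to that of KRT14, had 4, 2, 2 and 1 counts in DMSO and 5, 10, 8 and 9 in DPT.

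**Figure D5:**
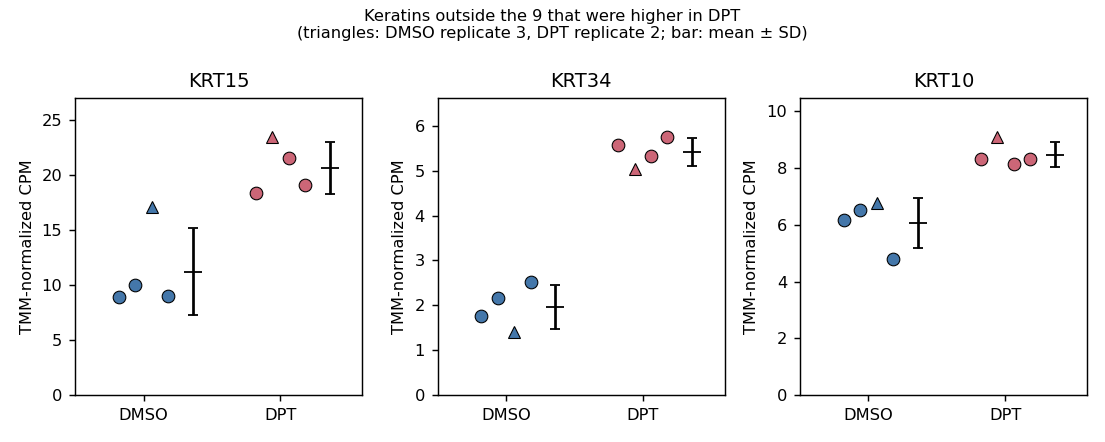
TMM-normalized CPM (vertical axes, from 0) of KRT15, KRT34 and KRT10 in each library, with the mean ± SD of each group and triangles for DMSO replicate 3 and DPT replicate 2. All 4 DPT points lie above all 4 DMSO points for each gene, most widely for KRT34 (5.03 to 5.76 against 1.40 to 2.51).

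Vimentin, the intermediate filament of mesenchymal cells that mesothelial cells carry beside keratins, went the other way from the abundant keratins. VIM rose by 0.46 log2 (edgeR adjusted p = 0.0182), a call lost without DMSO replicate 1 (0.0653), 2 (0.059) or 4 (0.0638). Its FPKM over the summed FPKM of the 9 keratins was 1.18, 1.19, 1.11 and 1.17 in DMSO and 2.41, 1.93, 2.69 and 2.51 in DPT. The ratio differed 1.73-fold within the pair and 2.15-fold among the other libraries. Of the 7 tested intermediate filament genes other than keratins, 1 rose and 0 fell, beside 5.68% and 5.29% of all tested genes. Their median log2 fold change was 0.05, against -0.002 over all tested genes. With the pair term 2 rose and 2 fell (16.9% and 17.0% of all genes). Those that fell were the lamin LMNB1 (-0.17, edgeR adjusted p = 0.0177) and the muscle and mesenchymal filament SYNM (-0.59, adjusted p = 6.71e-06). Those that rose were VIM and LMNB2 (0.14, adjusted p = 0.0321).

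Genes that anchor keratin filaments to junctions or to other filaments were called in both directions. Of 18 tested, 1 rose and 4 fell (median -0.10), where 5.68% of all tested genes rose and 5.29% fell. With the pair term 3 rose and 7 fell (16.9% and 17.0% of all genes). PPL, periplakin, a plakin that links intermediate filaments to junctions, measured 212, 207, 156 and 219 CPM in DMSO and 104, 68.3, 77.6 and 82.5 CPM in DPT, and fell by 1.26 log2 (SE 0.143, edgeR adjusted p = 0.0013). PKP2, a desmosomal plaque protein, fell from 12.9 to 15.4 CPM in DMSO to 5.44 to 7.97 CPM in DPT (adjusted p = 0.00295). ITGB4, an integrin of the hemidesmosome, and JUP, plakoglobin, also fell (-0.62 and -0.41 log2, adjusted p = 0.00702 and 0.0397). With the pair term DSG2 and ITGA6 rose as well (0.31 and 0.57 log2), and MACF1, PLEC and PKP4 also fell (-0.23, -0.23 and -0.13 log2). COL17A1, a collagen of the hemidesmosome, rose by 1.23 log2 (adjusted p = 0.00786), with its lowest DPT value in replicate 2 (7.25 CPM against 11.3 to 14.3). DSP, desmoplakin, was not called with all 8 libraries (0.19, SE 0.475, edgeR adjusted p = 0.849) or with the pair term (0.12, adjusted p = 0.237). It rose by 0.23 log2 in the 6 (adjusted p = 0.00178), while DPT replicate 2 differed from DMSO replicate 3 by -0.38 log2. The pair stood below the other libraries of its groups for DSP, by -1.62 log2 in DMSO and -2.23 in DPT.

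Regulators of epithelial genes were mostly absent or not called. GRHL2, ESRP1, OVOL2 and ELF5 had no counts in any library. Of 13 tested, 0 rose and 1 fell (median 0.11), against 5.68% and 5.29% of all tested genes. The 1 gene that fell was ELF3, which carries the limit of the filter given below. With the pair term SNAI2, KLF5 and ZEB1 rose and TFAP2A fell besides ELF3, where 16.9% of all genes rose and 17.0% fell. ELF3, an epithelial transcription factor, measured 3.18, 3.66, 1.81 and 3.23 CPM in DMSO and 0.428, 0.42, 0.239 and 0.552 CPM in DPT, with a log2 fold change of -2.83 (SE 0.334, edgeR adjusted p = 0.0015). It had 31 to 54 counts in DMSO and 4 to 9 in DPT, so it passed the filter on low counts through the DMSO libraries alone. Of 12 proteins that bind or cleave keratins 1 rose and 0 fell (median 0.08), beside the same shares of all genes. With the pair term 3 rose and 0 fell, DNAJB6 among them. The one called with all 8 libraries was SFN, a 14-3-3 protein that binds keratins (0.53, edgeR adjusted p = 0.00894).

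The genes with the most similar pattern were named by the smallest root mean square distance between log2 CPM profiles over the 8 libraries, each centred on its own mean. For KRT8 they were TUBB, a beta-tubulin (0.036 log2), TGFBI and NQO1 (0.063 each), and KRT18 was number 17 in that order (0.09). For KRT18 they were ERCC6 (0.079), PLCD3 and TLE4 (0.081 each), with KRT8 number 7. For KRT7 they were ADAMTS2 (0.065), CDKN2C (0.081) and LPAR1 (0.106), with KRT8 number 43. For KRT19 they were SDHA (0.02), MTCL1 (0.049) and COL4A2 (0.05). The other abundant keratins ranked lower for KRT19, KRT80 at 1105 (0.151 log2), KRT8 at 2938 (0.197), KRT18 at 3052 (0.199) and KRT7 at 9555 (0.376). Such ranks also depend on how many genes lie near a profile. The same distance of 0.197 log2 placed KRT19 at 351 for KRT8. KRT8, number 43 for KRT7, lay at a similar distance from KRT7 (0.191 log2). TUBB measured 1790, 1760, 2430 and 1860 CPM in DMSO and 1380, 1800, 1140 and 1240 CPM in DPT, so that it shared with KRT8 both the high DMSO replicate 3 and the high DPT replicate 2. These likenesses rest on 8 libraries that share a treatment and the pair.

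Markers of cell types were read beside these values, with the range of their summed FPKM in each group. For each marker list the shares over all tested genes were 5.68% higher and 5.29% lower, or 16.9% and 17.0% with the pair term. Of 11 mesothelial markers 7 averaged at least 1 FPKM. MSLN measured 7.97 ± 1.14 FPKM in DMSO and 6.73 ± 0.0817 in DPT, CALB2 7.08 ± 1.85 and 10.6 ± 1.59, and WT1 4.84 ± 0.494 and 5.79 ± 1.21. Of 11, 8 were tested, 0 rose and 1 fell (UPK3B), while with the pair term CALB2 and BNC1 rose and MSLN, PDPN and UPK3B fell. ITLN1 had no counts, and HAS1, UPK1B and LRRN4 were near the floor (0.0385, 0.0357 and 0.127 FPKM in DMSO). BNC1, THBD and PDPN were the highest (21.3, 18.7 and 10.3 FPKM in DMSO), and the sums were 69.5 to 76 and 75.6 to 83.2. Of 10 simple epithelial markers 4 were tested and 0 called by edgeR, and the sums were 13.9 to 19.5 and 11 to 17.2. With the pair term MUC1 was lower and EPCAM higher, EPCAM with only 2 to 12 counts in DMSO and 6 to 30 in DPT. Of the same markers CDH1, E-cadherin, averaged 0.014 FPKM in DMSO and 0.006 in DPT.

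Of 15 squamous markers, 5 of them keratins, 3 were tested and 0 called by edgeR, 6 had no counts, and the sums were 2.55 to 4.28 and 4.95 to 6.19 FPKM. With the pair term KRT10 and IVL were higher, IVL with 3 to 29 counts in DMSO and 24 to 57 in DPT. IVL reached the cut of the filter on low counts in 1 DMSO library and 4 DPT libraries. Of 10 fibroblast markers 6 were tested, 0 rose and 3 fell (PDGFRB, COL1A2 and COL3A1; with the pair term all 6, with COL1A1, POSTN and THY1), DCN and LUM had no counts, and the sums were 111 to 141 and 55.2 to 79.9. Of 10 leukocyte markers 2 were tested, CD68 and CD14, and 0 called by edgeR (CD68 higher and CD14 lower with the pair term). Their sums were 60.7 to 91.9 and 61.2 to 99.5, and PTPRC averaged 0.124 and 0.0995 FPKM. The part of the fibroblast and squamous genes in the keratin values was not tested.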

How the data were processed

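Messenger RNA of 8 H2452 libraries (4 DMSO, 4 DPT) was sequenced after oligo(dT) selection, per the labels' protocols. The deposited table gives an expected count per gene and library (10.8% of values not whole) and FPKM computed by the authors, per the file headers. The build was hg38 and the tools DESeq2, RSEM, StringTie 1.3.1, HISAT2 and fastp 0.18.0, per the submitters' processing notes, which give no roles or settings. Expected counts were rounded and analysed with edgeR 4.0.16 in R 4.3.3 (filterByExpr with a minimum count of 10 and minimum total of 15, 12648 genes kept, TMM, quasi-likelihood test with a treatment term, two-sided, Benjamini-Hochberg adjusted over all tested genes, called under 0.05). CPM use TMM-scaled totals, and profiles for similarity a prior count of 2. DESeq2 1.42.0 was an alternative. An interaction of pair and treatment, added after the data were seen, has 1 library per arm of the pair and is not reported. Transcript sequences and positions are from GENCODE 29 (GRCh38, as the files' build), aligned with Biopython 1.88. The genes and lists were chosen with earlier results of these data known. Named were the 9 keratins, other keratins of at least 1 FPKM in a group or called, and up to 2 called genes per direction and list by smallest p. Also named were the 3 genes of nearest profile to KRT7, KRT8, KRT18 and KRT19. All other genes were named after their values were seen. The code was tested on simulated data. Some items of the lists are not reported here.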

Additional observations from a re-analysis of the deposited data

Results flagged for a closer look

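In a group of 4 libraries a value was marked when its gap to the nearest other library exceeded 0.829 of the group's range. Of 36 such groups, chance marks about 1 in 20 where groups are independent. These are not, since the sums and ratios reuse the values of single genes. The 12 marked values belonged to DMSO replicate 3 or DPT replicate 2, which had already been singled out in these data. In DMSO replicate 3 the gap was 0.946 of the range for KRT7 (843 CPM against 500 to 518), 0.85 for KRT8 (2260 against 1570 to 1680), 0.86 for KRT18 (1450 against 1050 to 1100), 0.868 for KRT15 (17.1 against 8.87 to 9.96) and 0.851 for the sum of the 9 keratins (5100 against 3620 to 3840 CPM). In the same library it was 0.861 for the type II to type I ratio (1.56 against 1.41 to 1.43) and 0.849 for KRT7 over KRT8 (0.404). In DPT replicate 2 it was 0.842 for KRT5 (2.82 CPM against 0.419 to 0.797), 0.898 for KRT7 (717 against 300 to 343), 0.917 for the type II to type I ratio (1.87 against 1.39 to 1.43), 0.838 for KRT8 over KRT18 (1.46 against 1.25 to 1.28) and 0.913 for KRT7 over KRT8 (0.469).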

How the results depend on the processing

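Of the 31 genes followed through the alternatives (KRT14 and KRT81 in 2 fits only), 0 changed sign with a call. The other genes named were not followed. The 9 keratins gave 2 lower calls with all 8 libraries, 1 with library totals only (969 genes higher and 523 lower, against 718 and 669), 4 with DESeq2 (971 and 958), 5 with the term for the pair (2140 higher and 2156 lower), 5 in the 6 libraries (2158 and 2169) and 0 with the replicate number as a block (171 and 174). Leaving out 1 library gave 0 to 5 keratins lower, 332 to 1183 genes higher and 311 to 1108 lower. It gave 0 keratins without DPT replicate 3 or DPT replicate 4, 5 without DPT replicate 2, and 1 without DMSO replicates 1, 2 or 4 or DPT replicate 1, which also leaves fewer samples. The replicate numbers do not pair the libraries: same-numbered libraries correlated at 0.20, -0.31, -0.40 and 0.21. Under the block KRT18 kept its fold change of -0.65 (adjusted p = 0.0819) and KRT80 measured -0.43 (0.106). The log2 change of the keratin sum was -0.54, and -0.70 to -0.43 with 1 library left out. Counts limit KRT14, KRT81, KRT17 and KRT5.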
